A study of Mus musculus with 11 samples.

Results

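Selenoproteins contain selenocysteine, an amino acid that ribosomes insert at a UGA codon, which in other messages ends translation. The 10 selenoprotein genes described here were listed by name: the glutathione peroxidases Gpx1, Gpx3 and Gpx4, the thioredoxin reductases Txnrd1 and Txnrd2, and Selenoh, Selenow, Selenom, Selenok and Selenop. They are 10 of the 53801 genes counted, and the list uses no measured value as a criterion. RNA was sequenced from neural progenitor cells (NPCs), isolated from mouse brains at embryonic day E13.5 and grown as neurospheres, in 11 libraries. All cells were homozygous for the floxed allele of Smg6, which encodes the endonuclease of nonsense-mediated mRNA decay (NMD), on a mixed background that the labels give as C57BL/6 mixed with 129SV. The Smg6-iKO group (n = 4) carried 1 copy of RosaCreER, a tamoxifen-activated Cre recombinase expressed from the ubiquitous Rosa26 locus, and received 4-hydroxytamoxifen (4-OHT). The group Ctr (n = 3) had that same genotype and was left untreated. The group Ctr + 4-OHT (n = 4) had no RosaCreER and received 4-OHT. The drug was given at 1 µM for 3 days, and the cultures were analysed 6 days after its start. Libraries are named here as in the labels (SMH and a number). SMH_128, SMH_132 and SMH_133 each occur in both Ctr and Smg6-iKO, and the numbers were taken as embryo numbers because the labels describe both groups as the same cells. No group holds Cre-positive treated cells with intact Smg6, so the effects of Cre activity and of Smg6 loss cannot be told apart.

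Selenocysteine insertion needs a hairpin in the 3′ untranslated region (the SECIS element), a SECIS-binding protein, a dedicated elongation factor and a selenocysteine tRNA. When insertion fails, for example when selenium is scarce, the UGA acts as a stop codon. A stop codon that lies well upstream of the last exon junction is a classical trigger of NMD, and Gpx1 mRNA is a textbook case of a selenoprotein message degraded in this way. In the brain, selenoproteins limit peroxides and lipid peroxidation, and Selenop carries selenium between cells.

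The position of each UGA was read from the principal coding transcript in GENCODE release M21 on GRCm38. Windows of 27 bases around the UGA are shown 5′ to 3′ for 6 genes: the 3 that were lower against Ctr in the edgeR fit with the embryo as a block (Selenoh, Gpx3, Selenow), the textbook case Gpx1, and the 2 whose UGA does not lie 50 nt or more before the last exon junction (Selenok, Txnrd1). Capitals mark the selenocysteine codon, written as DNA.
Selenoh: cattgtacgagcTGAcgcgtgtacggc
Gpx3: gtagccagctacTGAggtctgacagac
Selenow: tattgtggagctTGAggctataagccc
Gpx1: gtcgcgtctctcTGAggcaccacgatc
Selenok: atggctggtggaTGAggaaggtaaatg
Txnrd1: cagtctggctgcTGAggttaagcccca
The Selenoh codon lies at chr2:84670381-84670383 on the minus strand, in exon 2 of 3, and is codon 38 of 116. The Gpx3 codon lies at chr11:54907256-54907258 on the plus strand, in exon 2 of 5, as codon 73 of 226. The Selenow codon is at chr7:15920464-15920466 on the minus strand, in exon 2 of 6, as codon 13 of 88. The Gpx1 codon is at chr9:108339451-108339453 on the plus strand, in exon 1 of 2, as codon 47 of 201. All 4 lie in exon 1 or 2, nearer the start of the coding sequence than its end. The Selenok codon is at chr14:29973440-29973442 on the plus strand, in exon 4 of 5, as codon 92 of 94. The Txnrd1 codon, at chr10:82896037-82896039 on the plus strand, is codon 498 of 499 and lies in exon 14 of 14.

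In 8 of the 10 transcripts the first selenocysteine UGA lay at least 50 nt upstream of the last exon junction, the spacing usually taken to mark a stop codon as premature. The distance was 357 nt in Selenop, 342 nt in Gpx4, 243 nt in Selenow, 240 nt in Gpx3, 136 nt in Selenoh, 135 nt in Selenom, 105 nt in Gpx1 and 83 nt in Txnrd2. In Selenok it was 5 nt, and in Txnrd1 the UGA followed the last junction by 63 nt. Selenop differs from the other 9 in having 10 UGA codons, of which the first stands alone in exon 2 and the other 9 are in its last exon. Other annotated transcripts of a gene can differ: the distance ranged from 26 to 357 nt over 6 Selenop transcripts and from -124 (UGA after the last junction) to 83 nt over 4 of Txnrd2, where the annotation marks a transcript at each of these extremes as principal and the first by name was used.

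**Figure D1:**
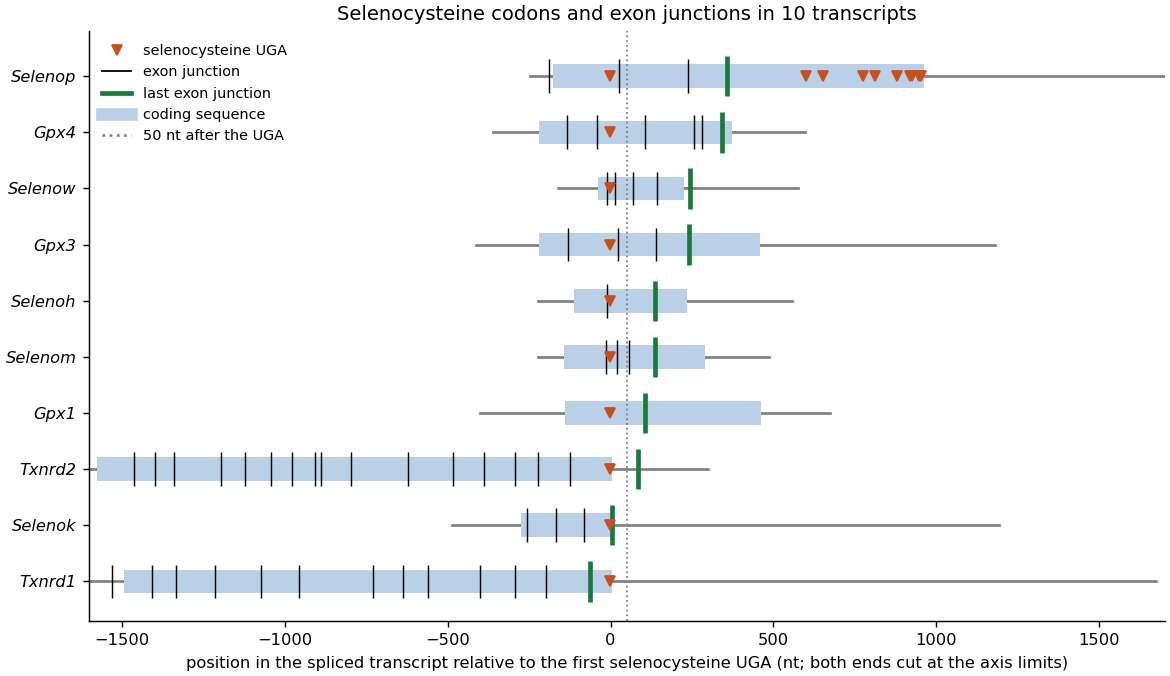
Spliced transcripts of the 10 genes aligned at their first selenocysteine UGA, with position in nt on the horizontal axis, coding sequence as blue bars, exon junctions as black ticks, the last junction in green and UGA codons as orange triangles. The green mark lies to the right of the dotted line, 50 nt after the UGA, in 8 genes, and to its left in Selenok (5 nt) and Txnrd1 (-63 nt).

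The libraries held 26418249 to 33756875 counted reads. Levels are given as CPM, the counts per 1000000 counted reads after TMM normalization. Smg6 itself had 62.3 to 71.9 CPM in Smg6-iKO, 66.5 to 72.3 in Ctr + 4-OHT and 69.4 to 79.4 in Ctr. These are totals over the whole gene, so they do not test for loss of the floxed part. Relative to Ctr + 4-OHT its log2 fold change came to -0.06 (edgeR adjusted p = 0.703), and relative to Ctr to -0.17 (adjusted p = 0.148). Fitted with the embryo as a block, the second value was -0.15 (adjusted p = 0.043). Esr1, the mouse counterpart of the receptor part fused to Cre, followed the genotype labels: 3.89 to 4.71 CPM in the 7 libraries with RosaCreER and 0.03 to 0.28 in the 4 without. The RNA of Gas5, a known NMD target, had 681 to 786 CPM in Smg6-iKO, against 255 to 338 in Ctr + 4-OHT and 323 to 342 in Ctr. All 8 neural progenitor markers were above 1 CPM on average in every group. Their sum was 5168 to 6066 CPM in Smg6-iKO, 6111 to 6563 in Ctr and 5527 to 6755 in Ctr + 4-OHT, and the sum of 6 neuron markers was 2024 to 2327, 1737 to 1905 and 1590.0 to 2577 CPM, respectively. On both sums Smg6-iKO lay apart from Ctr, with lower progenitor and higher neuron markers, and overlapped Ctr + 4-OHT. The part of these marker differences in the changes against Ctr reported here was not tested. Erythroid markers were near 0 (at most 0.467 CPM summed over 6 genes), as were microglial markers (at most 4.00 CPM over 7 genes), while the sum of 6 mesenchymal and meningeal markers ran from 92.4 to 550.2 CPM, highest in Smg6-iKO SMH_127 and next in Ctr + 4-OHT SMH_131 (347 CPM).

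All 10 genes were expressed in every library, with 221 to 6804 reads per gene and library. Divided by exon length, their mean level over the 11 libraries fell in a wide range. Selenow was the most abundant at 249 CPM per kb (231 to 279), which placed it at percentile 99.6 of 18123 expressed genes. Selenoh followed with 89.9 CPM per kb (71.3 to 107) and Gpx1 with 48.4 (43.5 to 54.6). These first 3 did not overlap each other or the next gene in any library. Selenok at 28.3 CPM per kb (24.8 to 32.0) and Txnrd1 at 27.9 (24.6 to 30.3) had overlapping ranges. The same held along the chain of Selenom (14.7), Gpx4 (12.3), Selenop (8.72) and Gpx3 (6.97 CPM per kb), each of which overlapped its neighbour. Txnrd2 was the lowest at 2.24 CPM per kb (1.92 to 2.43), percentile 38.7. The exon length includes the exons of every annotated transcript, so genes with long alternative exons are placed too low on this scale. Gpx4 is a further case, since reads mapping to several places were not counted and 68.9% of the 50-base windows of its transcript also occur in pseudogene transcripts. For Selenok this share was 14.7%, and for the other 8 it was 0%.

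**Figure D2:**
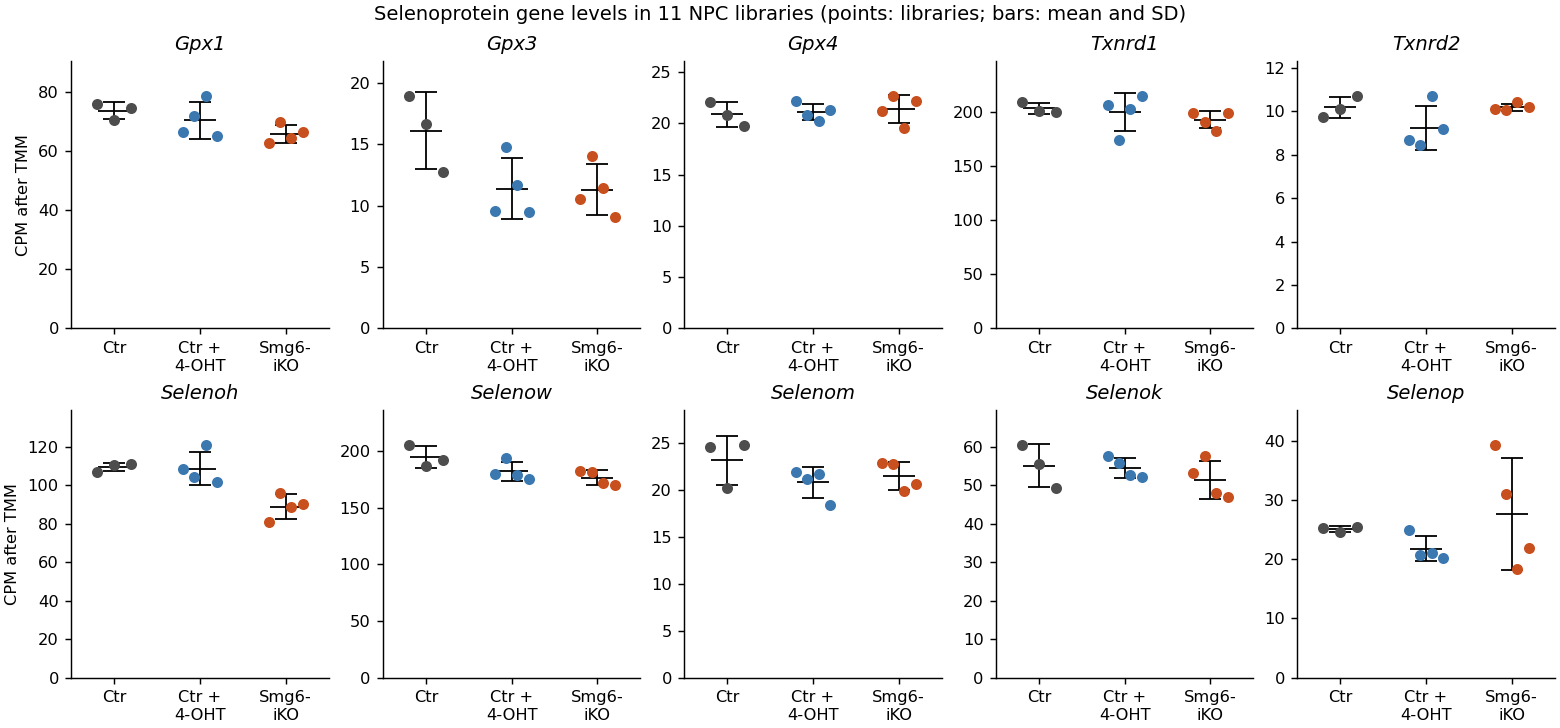
CPM after TMM normalization (vertical axes, each from 0) of the 10 genes in Ctr, Ctr + 4-OHT and Smg6-iKO; points are libraries, and bars give the mean and SD. The 4 Smg6-iKO points of Selenoh, 80.6 to 96.2 CPM, lie below all 7 control points, 102 to 121 CPM, and no other gene shows such a gap to both control groups.

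None of the 10 selenoprotein genes rose in Smg6-iKO cells in any fit. Against Ctr + 4-OHT, the comparison of treated cells that differ in RosaCreER, none of the 10 genes passed the threshold, an edgeR quasi-likelihood adjusted p under 0.05. Of all 17558 genes tested, 206 (1.17%) did, of which 0.757% were higher and 73 genes (0.416%) lower. At an unadjusted p under 0.05, 1 of the 10 genes (Selenoh, lower) was called, against 16.7% of all genes, and the DESeq2 Wald test called the same 1 gene at an adjusted p under 0.05, with 6.06% of all genes. In simulated data the DESeq2 test had a higher share of false calls than the edgeR fits. The median log2 fold change of the 10 genes was -0.02, beside 0.01 over all genes, and 4 values were above 0 and 6 below. Against Ctr, the comparison of untreated and treated cells of 1 genotype, Selenoh fell and the other 9 genes did not pass the edgeR test without a block, where 1663 of 17974 genes (9.25%) did, 767 higher (4.27%) and 896 lower (4.98%). These splits over all genes depended on the scaling: a correction for gene length gave 95 higher and 155 lower against Ctr + 4-OHT and 552 higher and 1419 lower against Ctr, and upper-quartile normalization gave 1089 higher and 694 lower against Ctr. The median was -0.10, beside 0.01 over all genes, 4 of the 10 had an unadjusted p under 0.05 (26.9% of all genes), and the DESeq2 test called Gpx3 as well as Selenoh, both lower (16.9% of all genes called). Between the controls, Ctr + 4-OHT against Ctr, none of the 10 passed, with 39 of 17665 genes passing (0.221%, of which 0.0396% were higher and 0.181% lower). Of the 10, Gpx3 and Selenop had an unadjusted p under 0.05 (2 of 10, beside 8.28% of all genes), both lower, and the DESeq2 test called none, beside 0.825% of all genes. The Ctr libraries enter both of these last comparisons, so their values are not independent.

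With the shared embryo as a block, Smg6-iKO against Ctr called 3 of the 10 genes, Gpx3, Selenoh and Selenow, all lower, against 3854 of 17974 genes (21.4%, of which 10.3% were higher and 11.2% lower). Within each of the embryos SMH_128, SMH_132 and SMH_133, the Smg6-iKO library was below the Ctr library for 7 of the 10 genes: Gpx1, Gpx3, Selenow, Selenoh, Selenom, Selenok and Txnrd1. No gene of the 10 was higher in all 3 embryos. Over all genes, 25.9% were lower in all 3 and 25.8% higher in all 3. Summed over the 10 genes, the CPM was 635 to 695 in Smg6-iKO, 686 to 718 in Ctr + 4-OHT and 716 to 758 in Ctr, a sum in which Txnrd1, Selenow and Selenoh weigh most.

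**Figure D3:**
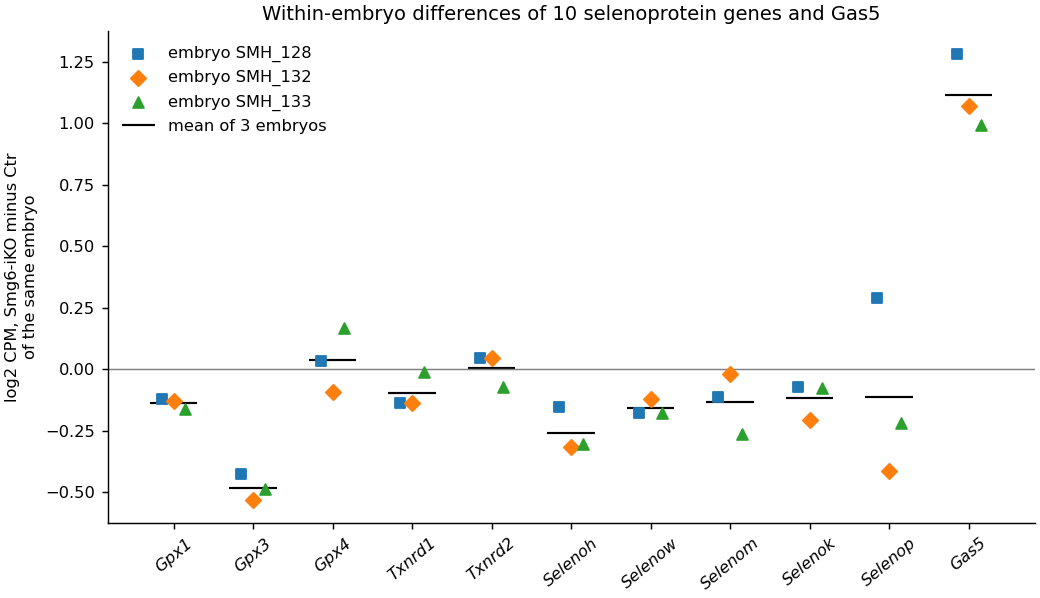
Difference in log2 CPM between the Smg6-iKO and the Ctr library of the same embryo (vertical axis) for the 10 genes and Gas5; symbols mark embryos SMH_128, SMH_132 and SMH_133 and lines the mean. Gpx3 lies between -0.53 and -0.43 and Selenoh between -0.32 and -0.15, while Gas5 lies between 0.99 and 1.28.

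Among the glutathione peroxidases, Gpx1 is the abundant cytosolic enzyme that reduces hydrogen peroxide. Its CPM was 76.0, 70.6 and 74.5 in Ctr, 66.3, 71.9, 78.7 and 65.0 in Ctr + 4-OHT, and 62.7, 69.9, 64.5 and 66.6 in Smg6-iKO. The Smg6-iKO libraries lay below every Ctr library and overlapped Ctr + 4-OHT, whose lowest library was above 2 of them. Fitted log2 fold changes were -0.09 relative to Ctr + 4-OHT (95% confidence interval -0.24 to 0.07, edgeR adjusted p = 0.588) and -0.16 relative to Ctr (-0.29 to -0.03, adjusted p = 0.108). Its UGA stands 105 nt upstream of the only junction, and the upper limit against the treated controls was 0.07 on the log2 scale. Whether the UGA acted as a stop codon in these cultures was not tested.

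Gpx3 encodes the secreted, extracellular peroxidase. Its CPM was 18.9, 16.6 and 12.8 in Ctr, 9.57, 14.8, 11.7 and 9.47 in Ctr + 4-OHT, and 10.6, 14.1, 11.5 and 9.11 in Smg6-iKO. Both treated groups had lower means than Ctr, at 11.4 ± 2.49 (SD, n = 4) and 11.3 ± 2.09 (n = 4) against 16.1 ± 3.11 CPM (n = 3), and both overlapped it. On the log2 scale Smg6-iKO differed from Ctr by -0.52 (SE 0.16, edgeR adjusted p = 0.0637) and Ctr + 4-OHT differed from Ctr by -0.50 (SE 0.18, adjusted p = 0.481). Between Smg6-iKO and Ctr + 4-OHT the value was 0.00 (-0.37 to 0.37, adjusted p = 1.00). Within embryos the spread was small: the Smg6-iKO library differed from the Ctr library by -0.43, -0.53 and -0.48 in log2 CPM, and the fit with the embryo block gave -0.48 (SE 0.08, adjusted p = 0.000378). Both treated groups received 4-OHT. Smg6-iKO and Ctr carried RosaCreER and Ctr + 4-OHT did not, so Ctr + 4-OHT differs from Ctr in genotype as well as drug. Both differences from Ctr rest on the same Ctr libraries.

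Gpx4, the peroxidase that repairs lipid hydroperoxides in membranes and restrains ferroptosis, was the most even of the 3. It had 22.1, 20.8 and 19.7 CPM in Ctr, 22.1, 20.8, 20.2 and 21.3 in Ctr + 4-OHT and 21.2, 22.7, 19.5 and 22.1 in Smg6-iKO. The groups overlapped fully. Estimated log2 fold changes were 0.03 relative to Ctr + 4-OHT (-0.12 to 0.18, edgeR adjusted p = 0.858) and 0.03 relative to Ctr (-0.13 to 0.20, adjusted p = 0.813). Only the uniquely mapping share of its reads stands behind these values.

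The thioredoxin reductases keep thioredoxin reduced, Txnrd1 in the cytosol and Txnrd2 in mitochondria. Txnrd1 had 209, 200.4 and 200.0 CPM in Ctr, 206, 174, 202 and 214 in Ctr + 4-OHT and 198, 190.1, 182 and 198 in Smg6-iKO. The Smg6-iKO libraries lay just under all Ctr libraries and within the range of Ctr + 4-OHT, with a log2 fold change of -0.04 (-0.19 to 0.11, edgeR adjusted p = 0.822) against the latter. Txnrd2 had 9.74, 10.1 and 10.7 CPM in Ctr, 8.67, 8.46, 10.7 and 9.19 in Ctr + 4-OHT and 10.1, 10.0, 10.4 and 10.2 in Smg6-iKO. Its Smg6-iKO libraries were close together, with an SD of 0.167 CPM (n = 4), and overlapped both control groups. For Txnrd2 the log2 fold change came to 0.15 against Ctr + 4-OHT (-0.06 to 0.36, adjusted p = 0.466) and 0.00 against Ctr (-0.18 to 0.18, adjusted p = 0.997).

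Selenoh encodes a small nuclear and nucleolar redox protein with a thioredoxin-like fold, and it was the 1 gene of the 10 that passed the edgeR test against Ctr without the embryo block. Its CPM was 107, 110.4 and 111 in Ctr and 108, 104, 121 and 102 in Ctr + 4-OHT. In the Smg6-iKO libraries SMH_127, SMH_128, SMH_132 and SMH_133 it was 80.6, 96.2, 88.6 and 90.1. Every Smg6-iKO library was below every control library, with means of 88.9 ± 6.39 (SD, n = 4) against 109 ± 8.60 (n = 4) in Ctr + 4-OHT and 109 ± 2.23 (n = 3) in Ctr. Against Ctr the log2 fold change was -0.30 (SE 0.06, -0.44 to -0.16, edgeR adjusted p = 0.0179), a change of -18.8%. Against Ctr + 4-OHT the estimate was of like size, -0.28 (SE 0.07, -0.44 to -0.12), and did not pass (adjusted p = 0.0948). An exact two-sided permutation test over libraries gave p = 0.0286 in each of these comparisons, the smallest value the group sizes allow, or 0.259 and 0.195 after adjustment over all genes tested. Against Ctr this test ignored the pairing, though SMH_128, SMH_132 and SMH_133 occur in both groups, so its p is not exact there. The same Smg6-iKO libraries enter both tests, so the 2 results are not independent. Between the control groups the log2 fold change was -0.01 (-0.17 to 0.14, edgeR adjusted p = 0.972). Groups without overlap were common in these data. Against Ctr + 4-OHT, 5.03% of all genes lay wholly higher and 5.99% wholly lower, and 1 of the 10 genes (Selenoh) lay wholly lower. Against Ctr these shares were 11.4% and 11.9%, and 4 of the 10 genes (Gpx1, Selenoh, Selenow and Txnrd1) lay wholly lower. In Ctr + 4-OHT against Ctr they were 3.80% and 4.91%, with 0 of the 10 genes in either direction.

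The call of Selenoh against Ctr depended on 2 Ctr libraries. Without Ctr SMH_132 the edgeR adjusted p was 0.055 and without Ctr SMH_133 it was 0.0529, with log2 fold changes of -0.31 and -0.29, and in the 5 other fits that left out 1 library it passed. The embryo block gave a change of -0.26 (SE 0.05, edgeR adjusted p = 0.00135). Against Ctr + 4-OHT it passed with all 11 libraries in 1 fit (log2 fold change -0.29, adjusted p = 0.0361) and by the DESeq2 Wald test (-0.29, adjusted p = 0.0127). Leaving out Smg6-iKO SMH_127 and Ctr + 4-OHT SMH_131, the libraries with the highest mesenchymal markers, gave -0.27 (edgeR adjusted p = 0.243).

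Selenow, a small thioredoxin-fold protein prominent in muscle and brain, had 205, 187 and 192 CPM in Ctr, 179.9, 194, 178 and 175 in Ctr + 4-OHT and 182, 181, 172 and 170.0 in Smg6-iKO. The Smg6-iKO libraries lay below all Ctr libraries and overlapped Ctr + 4-OHT. Smg6-iKO differed from Ctr by -0.14 on the log2 scale (-0.27 to -0.02, edgeR adjusted p = 0.13) and from Ctr + 4-OHT by -0.03 (-0.15 to 0.08, adjusted p = 0.795). Fitted with the embryo block the value against Ctr was -0.16 (SE 0.05, adjusted p = 0.0236), and the within-embryo differences were -0.18, -0.12 and -0.18. Ctr + 4-OHT against Ctr gave -0.10 (-0.24 to 0.04, adjusted p = 0.703).

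Selenom and Selenok are proteins of the endoplasmic reticulum, the first a soluble thioredoxin-fold oxidoreductase and the second a membrane protein linked to calcium flux and protein quality control. Selenom had 24.6, 20.2 and 24.8 CPM in Ctr, 22.0, 21.2, 21.7 and 18.4 in Ctr + 4-OHT and 22.9, 22.8, 19.9 and 20.7 in Smg6-iKO, with full overlap. Relative to Ctr + 4-OHT its log2 fold change came to 0.06 (-0.11 to 0.24, edgeR adjusted p = 0.752) and relative to Ctr to -0.10 (-0.30 to 0.09, adjusted p = 0.491). Selenok had 60.5, 55.5 and 49.4 CPM in Ctr, 57.6, 55.7, 52.7 and 52.1 in Ctr + 4-OHT and 53.2, 57.5, 48.1 and 47.0 in Smg6-iKO, again overlapping. The corresponding log2 values were -0.07 (-0.23 to 0.09, adjusted p = 0.666) and -0.10 (-0.29 to 0.09, adjusted p = 0.504).

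Selenop, the secreted selenium carrier with 10 selenocysteine codons, was the most variable of the genes in Smg6-iKO. Its CPM was 25.3, 24.5 and 25.4 in Ctr, 24.9, 20.8, 21.1 and 20.2 in Ctr + 4-OHT, and 39.3, 30.9, 18.4 and 21.8 in the Smg6-iKO libraries SMH_127, SMH_128, SMH_132 and SMH_133. The Smg6-iKO group thus spanned both control groups, at 27.6 ± 9.40 CPM (SD, n = 4). Its estimates on the log2 scale were 0.36 relative to Ctr + 4-OHT (-0.09 to 0.81, edgeR adjusted p = 0.411) and 0.14 relative to Ctr (-0.31 to 0.60, adjusted p = 0.708). Within embryos SMH_128, SMH_132 and SMH_133 the difference from Ctr was 0.29, -0.41 and -0.22, and the fit with that block gave -0.10 (adjusted p = 0.497). The highest library, Smg6-iKO SMH_127, also had the highest sum of mesenchymal and meningeal markers (550.2 CPM, all 6 markers above 1 CPM on average in every group). Ctr + 4-OHT SMH_131, with the next highest sum of 347 CPM, had 20.2 CPM of Selenop, and Smg6-iKO SMH_128, with 212 CPM of markers, had 30.9. The sum of 5 choroid plexus markers ran from 25.5 CPM in a Ctr library to 184 CPM in Smg6-iKO SMH_128, the library with the next highest Selenop, and was lowest within Smg6-iKO in SMH_132 (27.4 CPM), where Selenop was lowest too. Smg6-iKO SMH_127, highest in Selenop, had 74.1 CPM of them. Ctr + 4-OHT SMH_129 combined 172 CPM of these markers with 21.1 CPM of Selenop, and Ctr SMH_132 combined 25.5 CPM with 24.5. In bulk RNA, more cells of a type and more RNA per cell cannot be told apart, and the part of either marker list in the Selenop values was not tested. Without Smg6-iKO SMH_127 the estimate came to 0.13 on the log2 scale relative to Ctr + 4-OHT (edgeR adjusted p = 0.78) and -0.08 relative to Ctr.

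**Figure D4:**
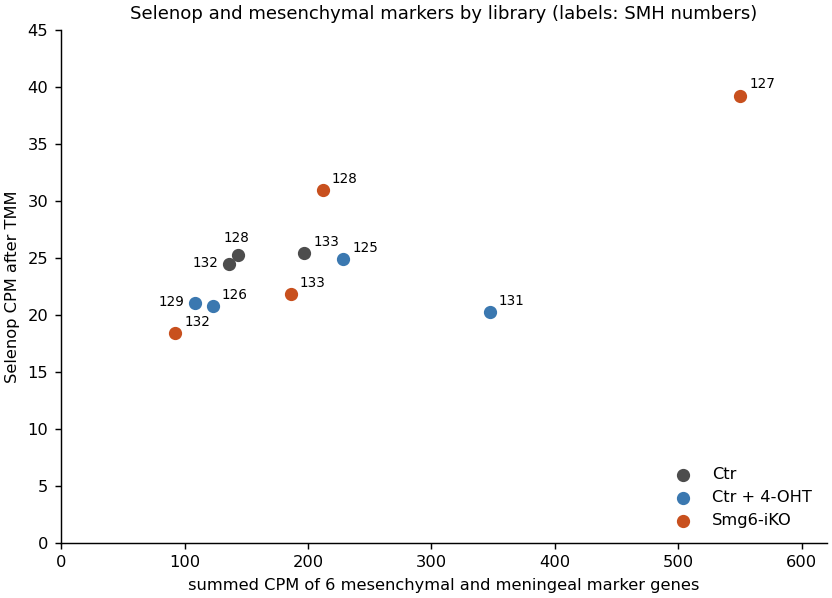
Selenop CPM (vertical axis) against the summed CPM of 6 mesenchymal and meningeal marker genes (horizontal axis) in the 11 libraries, labelled by the number in the library name and coloured by group. Smg6-iKO SMH_127 is highest on both axes (39.3 and 550.2 CPM), while Ctr + 4-OHT SMH_131 combines 347 CPM of markers with 20.2 CPM of Selenop.

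Set beside Gas5, the 10 genes had small estimates. Gas5 had log2 fold changes of 1.27 against Ctr + 4-OHT (1.06 to 1.48, edgeR adjusted p = 0.000223) and 1.10 against Ctr (0.95 to 1.24, adjusted p = 1.22e-05). Against Ctr + 4-OHT the upper confidence limit of the 10 genes reached 0.81 in Selenop, 0.37 in Gpx3, 0.36 in Txnrd2 and 0.24 in Selenom, and was below 0.20 in the other 6. All of these limits were below the lower limit of Gas5. By the position of the UGA, the 8 genes with a codon at least 50 nt upstream of the last junction had a median log2 fold change of 0.01 against Ctr + 4-OHT and -0.12 against Ctr. The medians of the other 2, Selenok and Txnrd1, were -0.06 and -0.09. None of the 8 rose in any of the 3 comparisons, beside 0.757% of all genes against Ctr + 4-OHT, 4.27% against Ctr and 0.0396% between the controls. Against Ctr, 1 of the 8 fell without the embryo block (4.98% of all genes) and 3 with it (11.2% of all genes). Neither of the other 2 passed in those fits. With both the block and the correction for gene length, Selenok fell (edgeR adjusted p = 0.0471), as did Gpx1 and the 3 called with the block. In that fit 2737 of 17974 genes were lower and 1341 higher. The counts are totals per gene, so a change in the share of transcripts that end at the UGA does not show in them.

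**Figure D5:**
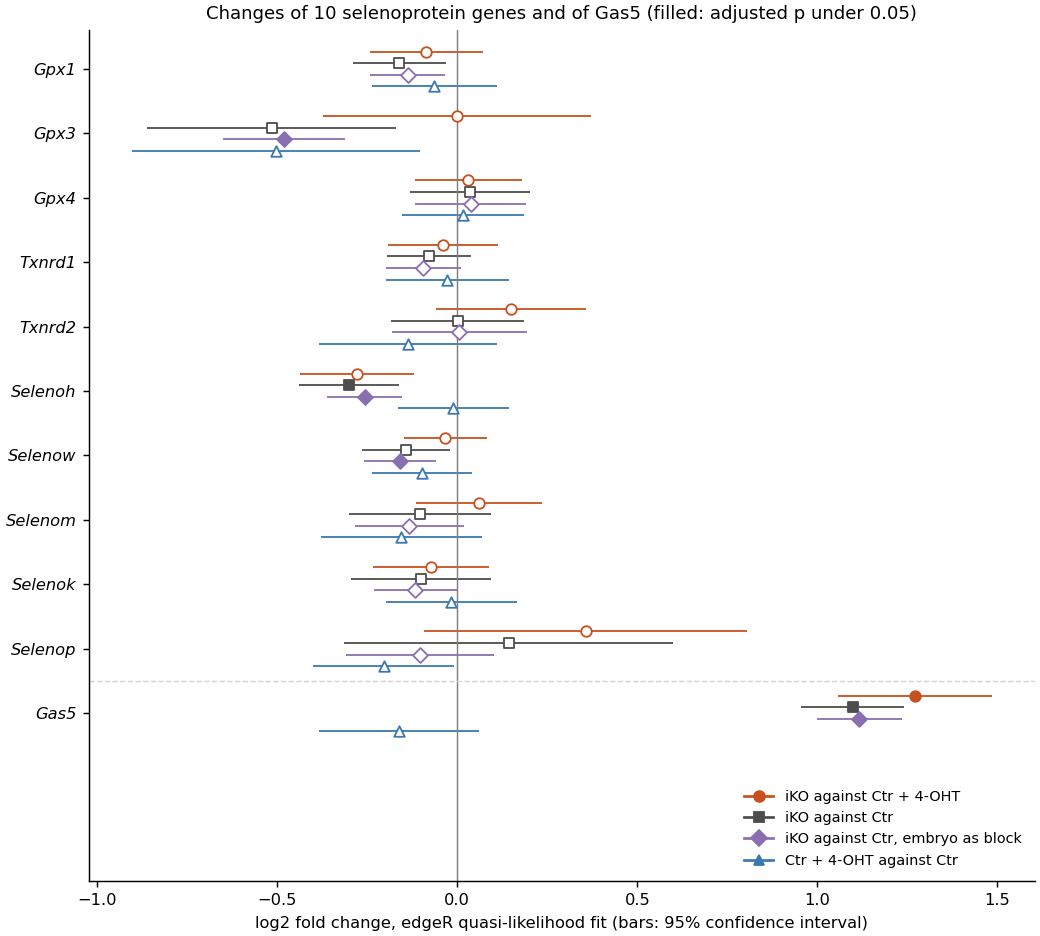
Log2 fold changes of the 10 genes and Gas5 (horizontal axis) with 95% confidence intervals from the edgeR fits: Smg6-iKO against Ctr + 4-OHT (circles), against Ctr (squares), against Ctr with the embryo as a block (diamonds) and Ctr + 4-OHT against Ctr (triangles); filled symbols have an adjusted p under 0.05. Filled symbols lie left of 0 for Selenoh (-0.30 and -0.26 with the block), Gpx3 (-0.48 with the block) and Selenow (-0.16 with the block), and right of 0 for Gas5 (1.27, 1.10 and 1.12 with the block).

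Of the other 14 selenoprotein genes in the annotation, 11 were tested by edgeR in each comparison, since Gpx2, Dio1 and Selenov had too few reads for its filter. None passed the edgeR test or the DESeq2 test against Ctr + 4-OHT (0 of 11 at an unadjusted edgeR p under 0.05, beside 16.7% of all genes, and 6.06% by DESeq2) or between the controls (1 of 11, beside 8.28%, and 0.825% by DESeq2). Against Ctr, 1 of the 11 rose and 1 fell (all genes: 4.27% and 4.98%), and DESeq2 called 2 higher and 2 lower (16.9% of all genes called). Txnrd3, the thioredoxin-glutathione reductase known from testis, rose by 0.40 on the log2 scale (SE 0.10, edgeR adjusted p = 0.0303), with 14.2, 14.9, 14.4 and 14.8 CPM in Smg6-iKO and 9.85, 10.6 and 12.7 in Ctr. Selenot, an oxidoreductase of the endoplasmic reticulum, fell by 0.22 (SE 0.06, adjusted p = 0.0401), with 99.2, 114, 104 and 102 CPM against 119.7, 126.6 and 120.2. Ctr + 4-OHT overlapped Smg6-iKO in both genes, at 11.8 to 14.6 CPM for Txnrd3 and 99.2 to 113 for Selenot. With the embryo as a block 3 of the 11 were higher (Txnrd3, Selenoi and Dio3) and 4 lower (Selenot, Selenof, Selenos and Dio2), beside 10.3% and 11.2% of all genes. Dio2, the deiodinase that activates thyroid hormone, had the clearest of these, -0.72 (SE 0.06, adjusted p = 1.24e-07), with within-embryo differences of -0.66, -0.71 and -0.82. Its levels in Ctr + 4-OHT, 27.3 to 84.9 CPM, spanned those of the other groups. Over all 24 selenoprotein genes, the UGA lay at least 50 nt upstream of the last junction in 14, within 50 nt in 2 (Selenok and Msrb1, the latter at 34 nt in the principal transcript used and 66 nt in another), in the last exon in 6, and in 2 single-exon transcripts there was no junction. Among the first 14, 11 were tested, and 0 rose and 2 fell against Ctr (Selenoh and Selenot). Among the other 10, all tested, 1 rose (Txnrd3) and 0 fell. With the embryo as a block the counts against Ctr became 0 higher and 5 lower in the first group and 3 higher and 2 lower in the second, again beside 10.3% and 11.2% of all genes.

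A list of 14 genes linked to selenocysteine insertion, its regulation or selenium use was tested in full. Sephs2 is in this list and also among the other selenoprotein genes. None passed the edgeR test against Ctr + 4-OHT, where the median log2 fold change was -0.03, beside 0.01 over all genes, 3 had an unadjusted p under 0.05 (16.7% of all genes) and DESeq2 called 2 (6.06% of all genes). None passed between the controls (2 at an unadjusted p under 0.05, beside 8.28% of all genes, and 0 by DESeq2). Against Ctr 3 of the 14 passed, beside 9.25% of all genes. Trit1, which modifies tRNAs including that for selenocysteine, rose by 0.30 (SE 0.05, edgeR adjusted p = 0.01). Secisbp2l, a paralogue of the SECIS-binding protein, fell by 0.26 (SE 0.05, adjusted p = 0.019), and Rpl30, a ribosomal protein that also binds SECIS elements, fell by 0.23 (SE 0.06, adjusted p = 0.0322). The other 11 did not pass, and DESeq2 and the embryo block each called 1 higher and 2 lower, where DESeq2 called 16.9% of all genes and the block fit called 10.3% higher and 11.2% lower. Of the 2 receptors that take up selenoprotein P, Lrp2 rose against Ctr by 0.46 (SE 0.10, adjusted p = 0.0191), and Lrp8 had a log2 fold change of 0.05 (adjusted p = 0.729). For Lrp2, the value in Ctr + 4-OHT against Ctr was 0.55 (SE 0.14, adjusted p = 0.311, though the DESeq2 test called it higher) and that between both treated groups -0.08 (adjusted p = 0.797).

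Redox proteins that work through cysteine, among them relatives of selenoenzymes, peroxiredoxins, thioredoxins and glutaredoxins, were listed with 20 genes, of which 18 were tested by edgeR. Against Ctr, 4 fell and 0 rose, where 4.98% of all genes fell and 4.27% rose, and 16 of the 18 values were below 0, with a median of -0.14 beside 0.01 over all genes. The DESeq2 test and the edgeR fit with the embryo as a block each called 7 lower and 0 higher, where DESeq2 called 16.9% of all genes and the block fit called 11.2% lower and 10.3% higher. Prdx6, a peroxiredoxin active on phospholipid hydroperoxides, fell by 0.36 (SE 0.06, edgeR adjusted p = 0.00877), Txn1, the thioredoxin that Txnrd1 reduces, by 0.33 (SE 0.07, adjusted p = 0.0228), Glrx, a glutaredoxin, by 0.32 (adjusted p = 0.0285), and Gpx8, a cysteine-type peroxidase of the endoplasmic reticulum, by 0.43 (adjusted p = 0.0424). Against Ctr + 4-OHT none passed the edgeR test, with 7 of 18 at an unadjusted p under 0.05 (16.7% of all genes), 2 called by DESeq2 (6.06% of all genes), 13 values below 0 and a median of -0.14. In that comparison Txn1 had -0.25 (SE 0.10, edgeR adjusted p = 0.233) and Prdx6 -0.05 (SE 0.08, adjusted p = 0.81). Between the controls none passed, with 2 at an unadjusted p under 0.05 (8.28% of all genes) and 0 by DESeq2, and the values were -0.06 for Txn1 (SE 0.10, edgeR adjusted p = 0.88) and -0.30 for Prdx6 (SE 0.09, adjusted p = 0.399). As for the 10 selenoprotein genes, no gene of this list rose in any comparison.

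Among 11 targets of NRF2, the transcription factor of the antioxidant response that also controls Txnrd1, 1 rose and 0 fell against Ctr by the edgeR test (all genes: 4.27% and 4.98%). By DESeq2 2 rose and 1 fell (16.9% of all genes called), and 1 rose and 1 fell with the embryo as a block (all genes: 10.3% and 11.2%). None passed the edgeR test against Ctr + 4-OHT (3 at an unadjusted p under 0.05, beside 16.7% of all genes, and 2 by DESeq2, beside 6.06%) or between the controls (2 at an unadjusted p under 0.05, beside 8.28%, and 1 by DESeq2, beside 0.825%). The 1 that rose was Slc7a11, the cystine importer, by 0.84 (SE 0.20, edgeR adjusted p = 0.0315), with 17.5 to 37.7 CPM in Smg6-iKO, 13.9 to 16.8 in Ctr and 18.4 to 29.5 in Ctr + 4-OHT. The treated groups overlapped, with a log2 fold change of 0.15 between them (adjusted p = 0.77). Of 12 other genes of ferroptosis, the iron-dependent death that Gpx4 restrains, 10 were tested by edgeR. Against Ctr + 4-OHT 1 passed, beside 1.17% of all genes. There 2 had an unadjusted p under 0.05 (16.7% of all genes) and DESeq2 called 1 (6.06%). Between the controls none passed, with 3 at an unadjusted p under 0.05 (8.28%) and 0 by DESeq2 (0.825%). Aifm2, which encodes a ferroptosis suppressor acting apart from Gpx4, rose in both Smg6-iKO comparisons, by 0.54 against Ctr + 4-OHT (SE 0.09, adjusted p = 0.0207) and by 0.31 against Ctr (SE 0.07, adjusted p = 0.0277). It had 14.5 to 15.1 CPM in Smg6-iKO, 8.8 to 11.1 in Ctr + 4-OHT and 11.7 to 11.99 in Ctr, without overlap. Against Ctr, 4 of the 10 rose and 0 fell, where 4.27% of all genes rose and 4.98% fell. With the embryo as a block 4 rose and 1 fell, beside 10.3% and 11.2% of all genes, and by DESeq2 2 rose (Chac1 and Aifm2) and 1 fell (16.9% of all genes called). The gene that fell in both was Tfrc, the transferrin receptor, named here after its values were seen. Besides Aifm2 the 4 that rose were Chac1, a glutathione-degrading enzyme, by 0.45 (adjusted p = 0.0222), Alox5, a lipoxygenase, by 1.08 (adjusted p = 0.0378), and Ptgs2, a prostaglandin synthase, by 2.06 (adjusted p = 0.0448). Alox5 and Ptgs2 were low, at 0.4 to 3.7 CPM in all libraries, and Ptgs2 was highest in Smg6-iKO SMH_127. By the edgeR test Aifm2 was the only gene of the functional lists that passed in both comparisons with Smg6-iKO, and the share of all genes that did so was not determined. The DESeq2 test added Selenoh, Trit1, Srxn1, Gsr and Prdx2, of which the last 3 are named here after their values were seen.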

How the data were processed

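RNA-seq counts were analysed for 11 libraries of cultured mouse NPCs. The deposited counts are whole reads per gene, made by the authors, whose methods and processing notes name bcl2fastq 1.8.4, STAR 2.5.4b on GRCm38 and featureCounts 1.5.0 with Ensembl 92 genes. The libraries were ribosomal RNA-depleted, stranded total RNA, and multi-mapping and multi-overlapping reads were not counted. The deposited files also give exon lengths, used for CPM per kb.

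Each comparison was fitted on its own groups with edgeR 4.0.16 (filterByExpr, TMM, quasi-likelihood test, Benjamini-Hochberg over all genes tested, threshold 0.05) in R 4.3.3, after tests on simulated data. In those data DESeq2 had a higher share of false calls than the other fits tested. CPM (counts per 1000000) used TMM factors over all 11 libraries, and log2 CPM a prior count of 2. Alternatives were DESeq2 1.42.0, limma 3.58.1 voom, other scalings and filters, a correction for gene length, the embryo as a block and each library left out. Counts were 26418249 to 33756875 per library, so a gene with 221 reads, the lowest here, is measured less precisely than one with 6804. No replicate pair looked like 1 library deposited 2 times (chi-square per gene at least 11.0 in 15 pairs).

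Deviations from the group mean correlated at 0.328 to 0.425 between Ctr and Smg6-iKO libraries of the same number and at -0.266 to 0.0948 otherwise, so the numbers pair these libraries. By the study's methods, the cells of Ctr came from 3 embryos and those of each treated group from 4. Genes named were the 10 selenoprotein genes, Smg6, Esr1 and Gas5, other selenoprotein genes, and of each further list the genes passing in any comparison (at most 4). The lists use no measured value as a criterion, but the 10 genes and the other lists were chosen with earlier results of these data known.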

Additional observations from a re-analysis of the deposited data

How the results depend on the processing

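Among the 10 selenoprotein genes, every alternative fit kept the count of genes that rose in Smg6-iKO at 0, while the count that fell depended on the fit. Against Ctr + 4-OHT it went from 0 to 1 (Selenoh) with all libraries in 1 fit and by either DESeq2 Wald test (groups compared, all libraries), and was 0 without any single library. Against Ctr it went from 1 (Selenoh) to 2 (Gpx3 and Selenoh) with no filter on low counts, with the gene length correction and by the DESeq2 Wald test on the groups compared. Leaving out 1 library gave 0 (without Ctr SMH_132) to 2 (Gpx3 and Selenoh, without Smg6-iKO SMH_128), and without Ctr SMH_133 Gpx3 passed and Selenoh did not. With the replicate block for embryo, a pairing of the 3 Ctr libraries with 3 of the 4 Smg6-iKO libraries, it was 3 (Gpx3, Selenoh and Selenow), and with the block and the gene length correction 5 (these and Gpx1 and Selenok). In that last fit 2737 of 17974 genes were lower and 1341 higher. The block changed no other call of the 10 genes. The number of the 10 genes whose groups did not overlap ran from 1 to 2 against Ctr + 4-OHT, from 4 to 5 against Ctr and from 0 to 2 between the controls when 1 library was left out, where the share of all genes without overlap also rose, to 13.1% to 19.5%, 26.4% to 35.5% and 11.4% to 18.1%.

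Over all genes, 206 passed against Ctr + 4-OHT, and this became 418 with no filter, 484 with all libraries in 1 fit, 873 and 1150 by DESeq2 on the groups compared and on all libraries, and 66 (without Smg6-iKO SMH_132) to 174 without 1 library. Against Ctr, 1663 became 2714 with no filter, 796 with all libraries in 1 fit, 3854 with the replicate block, 4078 with the block and the length correction, and 570 (without Smg6-iKO SMH_133) to 2524 (without Smg6-iKO SMH_128). Between the controls, 39 became 198 with no filter, 60 with all libraries in 1 fit, 169 and 239 by the same DESeq2 tests, and 5 (without Ctr SMH_128 or SMH_132) to 54 without 1 library. Leaving out Smg6-iKO SMH_127 and Ctr + 4-OHT SMH_131 together, chosen after seeing the data, left 42 genes against Ctr + 4-OHT.

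Log2 fold changes that changed sign were close to 0 in the fits as reported, except for Selenop. Against Ctr + 4-OHT, Gpx3 became 0.0157 with upper-quartile normalization, 0.00376 with at least 10 counts in every library and 0.000781 by limma-voom, Gpx4 became -0.0228 with the length correction, and Selenom became -0.0241 without the 2 libraries named above. Against Ctr, Txnrd2 became -0.00208 with DESeq2 size factors, -0.0503 with the length correction, -0.00619 and -0.00550 by the DESeq2 tests and -0.0423 with the block and the length correction. Selenop became -0.103 with the block and -0.149 with the block and the length correction. Between the controls Selenoh became 0.0261 with the length correction. Without 1 library the ranges that crossed 0 were, against Ctr + 4-OHT, -0.126 to 0.149 for Gpx3 and -0.00159 to 0.0647 for Gpx4, against Ctr, -0.0798 to 0.293 for Selenop, -0.0274 to 0.0345 for Txnrd2 and -0.00915 to 0.0805 for Gpx4, and between the controls, -0.0661 to 0.0269 for Selenoh, -0.0189 to 0.0572 for Gpx4, -0.0585 to 0.0316 for Txnrd1 and -0.0827 to 0.0546 for Selenok. Beyond the construction of each alternative, the cause of these shifts was not tested. With 3 or 4 libraries a group, a p that misses the threshold does not show that levels were equal.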
